A study of Homo sapiens with 7 samples.

Results

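Endosomes and lysosomes balance the charge of the protons pumped into them with chloride and cation transport across the same membrane. The genes CLCN3, CLCN4, CLCN5 and CLCN6 encode chloride/proton exchangers of endosomes, and OSTM1 encodes the partner protein that the lysosomal exchanger CLC-7 needs for stability. The TPCN genes encode cation channels that open in response to a membrane phosphoinositide, and the MCOLN genes encode mucolipins, cation channels that release calcium from the same compartments. Bafilomycin A1 blocks the V-ATPase, the proton pump that these transporters work alongside. The 9 genes named here, CLCN3 to CLCN6, OSTM1, TPCN1, TPCN2, MCOLN2 and MCOLN3, were taken by the gene name of each spot, and were found on 16 probes. The array carries 50599 probes with 36337 gene names.

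The cells were HCT116, a human colon carcinoma line labelled diploid, in the derivative that expresses a fusion of histone H2B and GFP. They received 10 nM bafilomycin A1 for 30 h in medium with 10% serum, and 100 ng of RNA per culture was labelled with Cy3. 4 replicate cultures were each measured on 1 array of the same slide. As 3 untreated cultures belong to the design but were not analysed here, the values describe treated cells alone, with no response to bafilomycin A1 and no test between groups. Each SD measures only the spread between these 4 cultures and their arrays. In such cultures, fewer cells with a transcript and less of it per cell cannot be told apart.

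Of 14 markers of colon epithelium, 12 had a probe well above background on all 4 arrays, while VIL1 and CDH17 had none on any array. Of 14 markers of blood, stroma, endothelium, liver, glia and muscle found on the array, 5 met the same criterion (PTPRC, CD3E, COL1A1, VWF and CDH5) and 6 were well above background on no array. The criterion therefore marks a signal above local background and not a level typical of a cell type. The share of spots well above background was between 55.6% and 60.4% on the 4 arrays, and no spot was saturated.

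Sequences are shown for the probes of CLCN3 and CLCN6, where replicate 3 was the highest array for one probe and the lowest for another, and for the probes that cross a splice junction. Positions are those of GRCh37 as the array files give them, and each probe has 60 bases. No gene annotation of that build was used here, so exon and UTR are given only as far as the probe's own coordinates show them. CLCN3 was read by a probe 882 bases into its transcript, at chr4:170608814-170608873, and by a second one 3737 bases in, at chr4:170641794-170641853. The upstream probe is given whole and the other by its last 30 bases, with any AATAAA, the common polyadenylation hexamer, in capitals:
CLCN3 A_21_P0013622: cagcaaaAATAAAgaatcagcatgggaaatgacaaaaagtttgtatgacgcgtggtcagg
CLCN3 A_23_P124476: ttgtggcattaaccatgtagtttgtaccat

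CLCN6 was read by 3 probes on the plus strand of chromosome 1, each shown by its last 30 bases with AATAAA again in capitals. The first, at chr1:11880499-11880558, was designed on the Ensembl transcript ENST00000376497. The second, at chr1:11888216-11888275, was designed on NM_021735, described in the files as the transcript variant ClC-6b. The third, at chr1:11903126-11903185, lies 5568 bases into NM_001286, the variant ClC-6a, and holds the hexamer.
CLCN6 A_33_P3270228: aaaacatcaatggggccggacacagtggct
CLCN6 A_33_P3415113: ccctggattgctgaactttggcgagtttaa
CLCN6 A_24_P302374: ctaacatgtgagAATAAAatgtcttctgtc

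For 2 of the 16 probes the coordinates span more than the probe's 60 bases, so that the probe crosses a splice junction and cannot match unspliced RNA in 1 piece. The TPCN1 probe spans 255 bases at chr12:113730870-113731124 on the plus strand. The MCOLN3 probe spans 166 bases at chr1:85487863-85488028 on the minus strand. Both are given whole:
TPCN1 A_24_P309645: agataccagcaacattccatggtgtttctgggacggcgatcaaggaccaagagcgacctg
MCOLN3 A_23_P12241: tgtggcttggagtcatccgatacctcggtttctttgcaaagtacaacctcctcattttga

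As printed, AATAAA occurred in 5 of the 16 probes and in 7.88% of all probes on the array. Whether any of these hexamers serves in polyadenylation was not tested. The GC content of the 16 probes lay between 31.7% and 53.3%, against a median of 43.3% over all probes. Probes of different genes among the 9 had no run of more than 11 bases in common, and the longest run shared with a probe of any other gene was 17 bases. Only probes of the array were compared, so matches elsewhere in the genome, repeats included, were not tested. The files list 28 RefSeq transcript accessions for 14 of the 16 probes, and none for the Ensembl-based probes of CLCN6 and MCOLN3. Of the 28, 25 were matched in the RefSeq gene table of GRCh38.p14, all to the same gene symbol. The 3 that were not matched all belong to the ClC-6b probe of CLCN6.

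All 9 genes had at least 1 probe well above background on all 4 arrays. The same held for 52.5% of all gene names and for 70.9% of those that are protein-coding symbols, so detection does not set the 9 genes apart from most protein-coding genes. Of the 16 probes, 14 were well above background on every array, against 48.7% of all probes. The exceptions were the upstream probe of CLCN3, which passed on replicate 1 alone, and the upstream probe of CLCN4, which passed on none. Signals of different probes depend on their sequence and are not a ranking of transcripts, so the genes are described one by one.

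**Figure D1:**
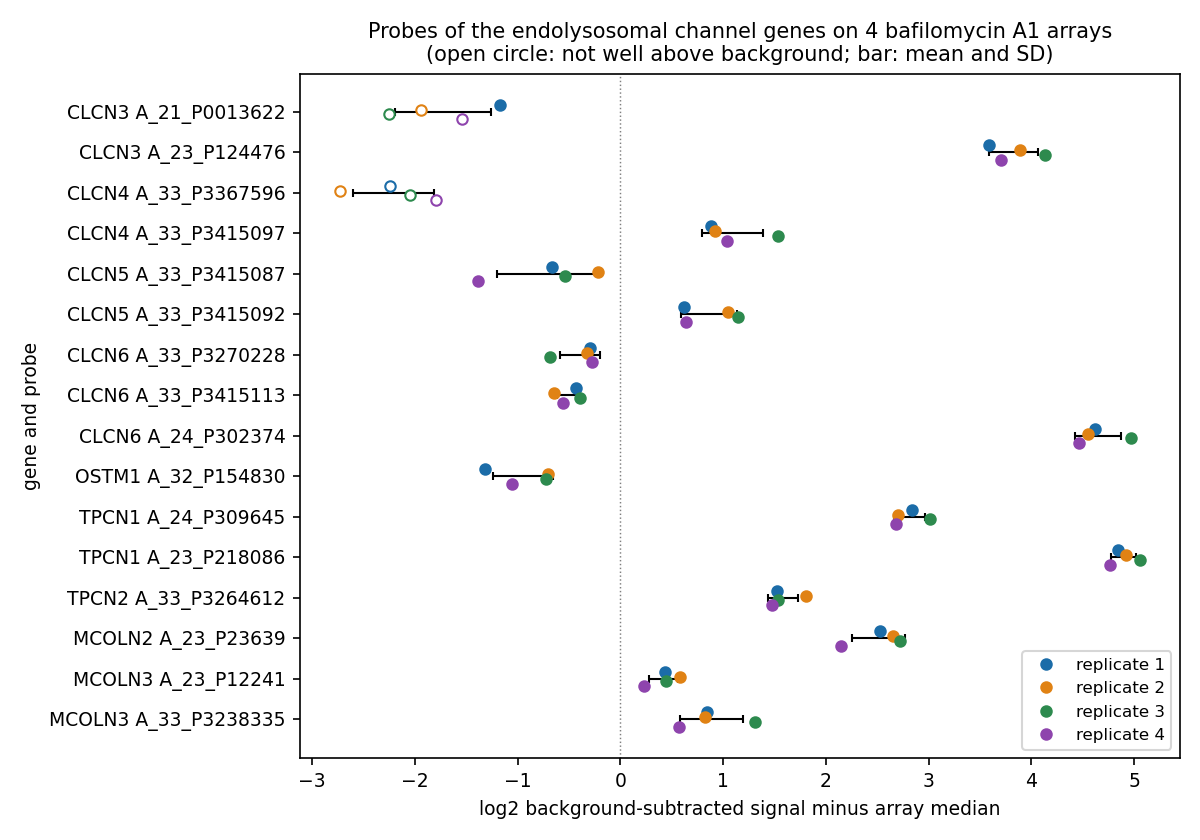
Normalized signal of the 16 probes, one row per probe, as log2 background-subtracted signal minus the array median (x axis). Filled circles are arrays on which the probe was well above background, open circles are arrays on which it was not, colours are replicates 1 to 4, and bars give the mean ± SD (n = 4); only the upstream probes of CLCN3 and CLCN4 have open circles.

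Among the exchangers, CLCN3 encodes a protein of endosomes and synaptic vesicles. Its downstream probe A_23_P124476 had background-subtracted signals of 929, 1038, 1236 and 825 scanner units on replicates 1 to 4. The upstream probe A_21_P0013622 gave 34.2, 18.3, 14.8 and 21.8, and was well above background on replicate 1 alone. Relative to the array median, the downstream probe was highest on replicate 3 and lowest on replicate 1, and the upstream probe the reverse. On that log2 scale the downstream probe was at 3.83 ± 0.24 and the upstream one at -1.72 ± 0.47 (SD, n = 4). The median over both, which is the gene value by the study's normalization, was 1.05 ± 0.12 (SD, n = 4), a smaller spread than that of either probe, and without replicate 1 its SD was 0.07. With only probes well above background on all arrays, the gene value was 3.83 and its arrays spanned 1.46-fold in place of 1.20-fold.

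CLCN4 encodes a close relative of CLC-3 and CLC-5 that works in endosomes. It was read by 2 probes on chromosome X, one 2766 and the other 6623 bases into NM_001830. The downstream probe A_33_P3415097, at chrX:10205535-10205594, had signals of 142, 133, 203 and 131 on replicates 1 to 4. Replicate 3 was the highest, and the other 3 arrays lay close together. The upstream probe A_33_P3367596, at chrX:10201678-10201737, had signals between 10.6 and 18.3 and was well above background on no array. The lowest signal that passed as well above background was between 19.0 and 22.3 on the 4 arrays. Normalized, the downstream probe was at 1.10 ± 0.30, and the gene value over both probes was -0.55 ± 0.29 (SD, n = 4). The gene value was lowest on replicate 2, as was the upstream probe, while the downstream probe was lowest on replicate 1. The span was 1.56-fold for the gene value and for the downstream probe alone.

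CLCN5 encodes the exchanger of apical endosomes whose loss in kidney tubules causes Dent disease. Both of its probes, at chrX:49856988-49857047 and chrX:49863833-49863892, had signal well above background on all 4 arrays. The probe 10048 bases into NM_001127899, A_33_P3415092, had signals of 119, 145, 155 and 98.5 on replicates 1 to 4. Its partner 3203 bases in, A_33_P3415087, had 48.5, 60.5, 48.3 and 24.2. Replicate 4 was the lowest in signal for both, and the second probe on that array lay just above the limit of 22.3. Relative to the array median, A_33_P3415092 was lowest on replicate 1, at 0.62 against 0.63 on replicate 4. The gene value was 0.08 ± 0.36 (SD, n = 4), and replicate 2 exceeded replicate 4 by 1.73-fold. Without replicate 4 the SD was 0.23 and the span 1.36-fold.

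CLCN6 encodes an exchanger of late endosomes best known from neurons. The probe of the variant ClC-6a, A_24_P302374, had signals of 1899, 1643, 2204 and 1399 on replicates 1 to 4. The ClC-6b probe A_33_P3415113 had 57.3, 44.9, 53.5 and 43.2. The Ensembl-based probe A_33_P3270228 had 62.6, 56.0, 43.7 and 52.5. All 3 passed as well above background on each of the 4 arrays. Replicate 3 was the highest for the ClC-6a probe and the lowest for the Ensembl-based one. The gene value, a median over 3 probes, was the value of the Ensembl-based probe on replicates 1, 2 and 4 and that of the ClC-6b probe on replicate 3. It came to -0.32 ± 0.05 (SD, n = 4), and the ClC-6a probe, at 4.65 ± 0.22 (SD, n = 4), set it on no array. The ClC-6a, ClC-6b and Ensembl-based probes had SDs of 0.22, 0.11 and 0.19. The SD of the gene value was 0.03 without replicate 3, 0.22 with the processed signal centred on its 75th percentile, 0.10 after normexp and quantile normalization and 0.12 with the median over all probes.

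OSTM1 encodes the partner of CLC-7, and its loss causes osteopetrosis. It had 1 probe, A_32_P154830, 3761 bases into NM_014028 at chr6:108363259-108363318 on the minus strand. Its signals were 30.9, 43.2, 42.6 and 30.6 on replicates 1 to 4, with a spot error by the scanner software of 5.30 on replicate 1. Replicates 2 and 3 were alike and higher than replicates 1 and 4. All 4 signals passed as well above background, and the normalized value was -0.95 ± 0.29 (SD, n = 4).

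**Figure D2:**
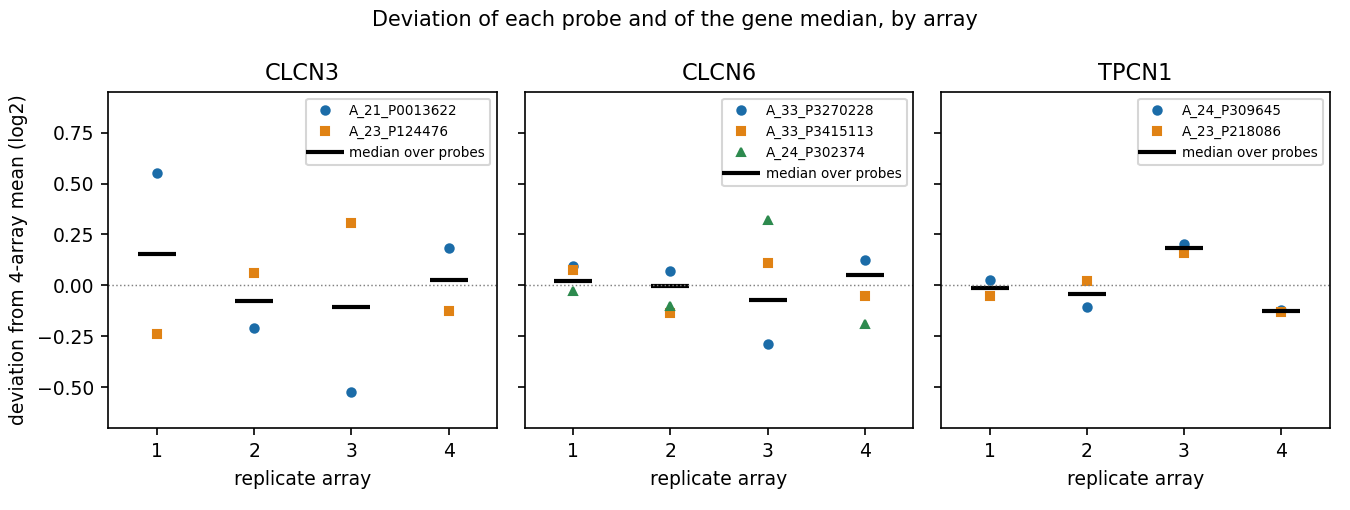
Deviation of each probe from its own 4-array mean (y axis, log2) on replicate arrays 1 to 4 (x axis) for CLCN3, CLCN6 and TPCN1; coloured symbols are probes and black dashes the median over the probes of the gene. The CLCN3 probes lie on opposite sides of 0 on every array, the CLCN6 median stays within 0.07 of its mean, and both TPCN1 probes are highest on replicate 3. The upstream CLCN3 probe, A_21_P0013622, was well above background on replicate 1 alone.

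Of the cation channels, TPCN1 encodes the channel TPC1 of endosomes. Its downstream probe A_23_P218086, 5285 bases into NM_001143819 at chr12:113736326-113736385, had signals of 2213, 2117, 2334 and 1724 on replicates 1 to 4. The junction-crossing probe A_24_P309645 had 551, 457, 567 and 409. Both probes were highest on replicate 3 and lowest on replicate 4, and their SDs were 0.12 and 0.15. The gene value was 3.85 ± 0.13 (SD, n = 4), with 1.24-fold between the highest and the lowest array. Without replicate 3 the SD was 0.06 and the span 1.08-fold.

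TPCN2 encodes TPC2, a channel of late endosomes and lysosomes. Its probe A_33_P3264612, 4966 bases into NM_139075 at chr11:68858013-68858072, had signals of 222, 245, 204 and 177 on replicates 1 to 4. Normalized, replicate 2 was at 1.80 and the other 3 between 1.48 and 1.54, for a mean of 1.59 ± 0.15 (SD, n = 4). Leaving out replicate 2 lowered the SD to 0.03.

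MCOLN2 encodes TRPML2, a mucolipin known chiefly from immune cells. Its probe A_23_P23639, 2055 bases into NM_153259 at chr1:85392195-85392254 on the minus strand, had signals of 443, 440, 464 and 281 on replicates 1 to 4. Replicate 4 was the lowest, and the other 3 were close to each other. The normalized value was 2.51 ± 0.26 (SD, n = 4), and without replicate 4 the SD was 0.10.

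MCOLN3 encodes TRPML3, known from hair cells of the inner ear, and is the only gene of the 9 with a probe printed as 10 spots. The mean signal of the spots of this probe, A_23_P12241, was 104, 105, 95.5 and 74.7 on replicates 1 to 4, after 1 outlying spot was left out on replicate 3 and 1 on replicate 4. On replicate 1 the spots ranged from 80.4 to 134, and on replicate 4 from 61.7 to 91.9, so that spots of different arrays overlapped. Spots within an array had an SD of 0.22 on the log2 scale, from which an SD of 0.07 follows for the mean of the spots. The means of the 4 arrays, each relative to its array median, had an SD of 0.14 (n = 4), which holds the spread between cultures as well as spot error. Over the 673 detected probes printed as 10 spots, the median SD was 0.18 within an array and 0.20 between arrays, and 25.0% of them varied less between arrays than the MCOLN3 probe. The second probe, A_33_P3238335 at chr1:85490233-85490292 on the minus strand, is a single spot designed on an Ensembl transcript. It had signals of 139, 124, 175 and 94.3 and an SD of 0.31 on the normalized log2 scale (n = 4). Replicate 4 was the lowest for both probes, replicate 3 the highest for the single spot alone, and the gene value was 0.66 ± 0.20 (SD, n = 4), with an SD of 0.12 without replicate 4.

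**Figure D3:**
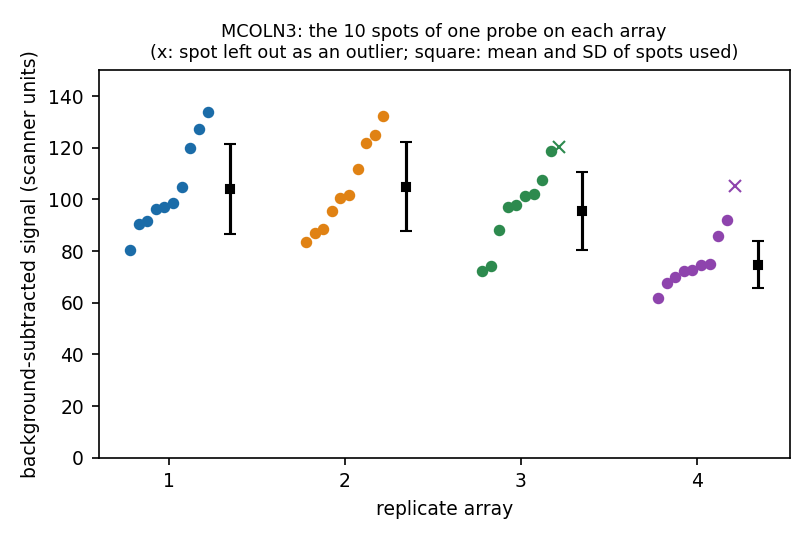
Background-subtracted signal in scanner units (y axis) of the spots of the MCOLN3 probe A_23_P12241 on replicate arrays 1 to 4 (x axis). Circles are spots used, crosses are spots left out as outliers, and squares with bars are the mean ± SD of the spots used; the mean falls between 95.5 and 105 on replicates 1 to 3 and is 74.7 on replicate 4.

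Over the 9 genes, the median SD between replicates was 0.20, against 0.21 over the 19083 genes detected on all 4 arrays. The ratio of the highest to the lowest array passed 1.4 for CLCN4, CLCN5, OSTM1 and MCOLN2, 4 genes of the 9. Over all detected genes the share past 1.4-fold was 46.4%, so the count of 4 is near the background. The study uses 1.4-fold as its cutoff for ratios between cell lines, each taken as a median over replicates. A range over 4 replicates of 1 condition is a different measure. These counts therefore do not show how often replicate spread would pass the study's cutoff. Counted by probe, 8 of the 14 probes well above background on all arrays spanned more than 1.4-fold, against 43.5% of all such probes. Without replicate 4 the number of genes fell to 2, CLCN4 and OSTM1, and no share over all genes is given for that setting. These 2 also depended on single arrays: CLCN4 spanned 1.34-fold without replicate 2, and OSTM1 1.28-fold without replicate 1. By Dixon's ratio, the gap of the outermost array as a share of the whole range, none of the 9 genes had 1 array apart from the others, against 8.48% of detected genes. Of the 16 probes 1 did, a CLCN6 probe, against 7.3% of detected probes.

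The arrays also differed as a whole. The mean deviation of the 9 genes from their own 4-array means was 0.13 on replicate 3 and -0.13 on replicate 4, against 0.07 and -0.09 over all detected genes. Replicate 4 was the lowest of the 4 arrays in 5 of the 9 genes and in 35.1% of all detected genes. Replicate 3 was the highest in 4 of the 9 and in 48.5% of all. The SD of this mean between arrays was 0.11, and 0.0335 with the processed signal of the scanner software centred on its 75th percentile. The part of these whole-array differences in the spread of single genes was not tested.

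The span between replicates depended on the normalization. With normexp background correction, which adds an offset of 50 to each signal, followed by quantile normalization, the 9 genes spanned between 1.07-fold and 1.23-fold. Which of these steps changed the spans was not tested. Under this setting none passed 1.4-fold, against 15.5% of all detected genes. With the processed signal of the scanner software centred on its 75th percentile, 4 genes passed, against 39.1% of all detected genes, but MCOLN2 no longer did, at 1.28-fold, and CLCN6 did, at 1.44-fold in place of 1.09-fold.

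**Figure D4:**
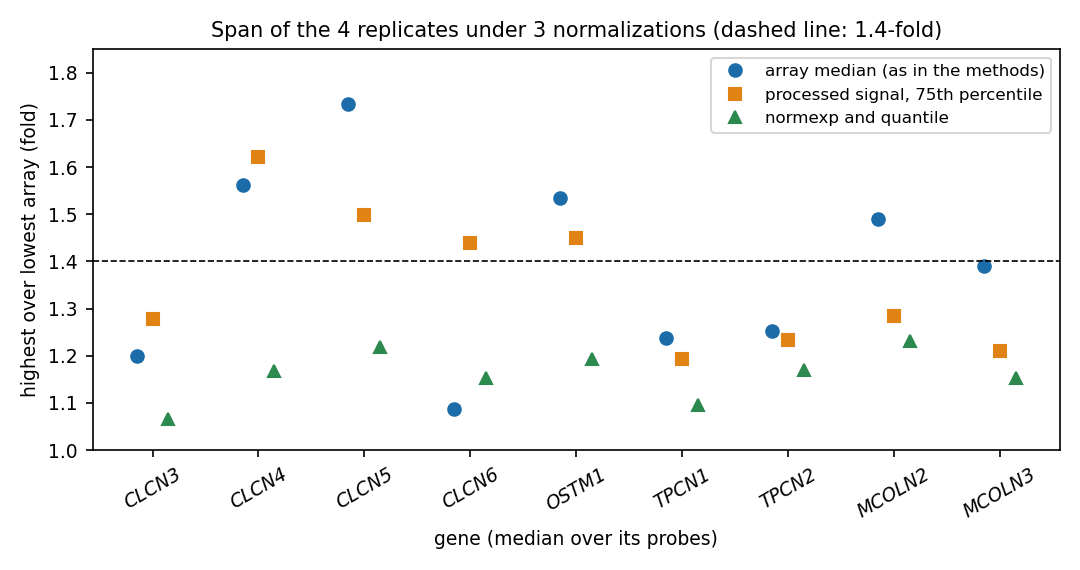
Ratio of the highest to the lowest of the 4 arrays (y axis, fold) for the gene value of each of the 9 genes (x axis) under 3 normalizations; the dashed line marks 1.4-fold. Under centring on the array median 4 genes lie above the line, and under normexp and quantile normalization all 9 lie below it.

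Other genes of these compartments were counted without values. Of 19 further endolysosomal channels and regulators, 18 had a probe well above background on all 4 arrays, against the 70.9% of protein-coding symbols given above. They include CLCN7, the exchanger that OSTM1 binds, MCOLN1, the mucolipin of lysosomes, and PIKFYVE, VAC14 and FIG4, the complex that makes the phosphoinositide which opens TPC and mucolipin channels. The exception, LRRC8D, a subunit of volume-regulated anion channels, passed on some arrays.

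RefSeq promoter sequences of GRCh38.p14, from 250 bases before to 50 bases after a start site, were given for 8 of the 9 genes, in 12 windows. They were searched for CACGTG, an E-box core that TFEB, a transcription factor of lysosomal genes, can bind. Binding of TFEB or of any other factor to the matches was not tested. The motif is its own reverse complement, so 1 search covers both strands. It was present in 3 of the 12 windows, those of CLCN4, CLCN5 and CLCN6, and in 7.26% of all 35116 windows. The longer TCACGTGA, which contains it, was found for CLCN5 and CLCN6 and in 0.98% of all windows. The CLCN4 match begins 40 bases before the start site and the CLCN5 match 50 bases before it, in 1 of 3 windows of that gene. CLCN6 has a match 20 bases before the start site and a second one just past it. The matches are shown with 30 bases each, all on the plus strand and with CACGTG in capitals, at chrX:10156923-10156952, chrX:50067526-50067555, chr1:11806159-11806188 and chr1:11806182-11806211 in the order given:
CLCN4 promoter: ggctgggccgagCACGTGatgctcccagcc
CLCN5 promoter: caaaggtctggtCACGTGactccaacagtg
CLCN6 promoter, first match: gctcgagagggcCACGTGaccgtcccgggg
CLCN6 promoter, second match: cccggggccagtCACGTGaggcgcagatcc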

How the data were processed

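The authors deposited 1 scanner file per array, with intensity values that Agilent Feature Extraction 10.7.3.1 had background-subtracted and not normalized between arrays. The deposited p-value per spot against background, a column of the same files, was not used for any value given here. Spots of controls, and spots flagged as outliers in the feature or its background, were dropped before the remaining spots of each probe were averaged. As in the study's methods, signals were log2 transformed and centred on the array median (over non-control probes with a positive signal), and each gene took the median of its probes. Means with SDs are given in place of the study's medians over replicates. A probe counted as well above background where the software had flagged over 50% of its spots so, and a gene as detected when this held on all 4 arrays for at least 1 probe.

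The members and the gene lists were chosen with earlier results of these data known. All probes of the 9 genes were named, and genes of other lists by detection alone. A list of chloride channels of the cell surface is not reported here. Genes with a similar pattern were not sought, since 4 arrays of 1 condition give no pattern to compare. Protein sequences and an annotation of GRCh37 were not used here, so protein identity and the place of probes in coding sequence were not computed. A Dixon's ratio over 0.829, the critical value at n = 4, marked values in which 1 array lay apart. The calculation of the spread statistics was tested on simulated data with independent normal noise of equal size for every gene and no whole-array shift. The arrays here did differ as a whole, so that test does not show how the statistics behave on them. Precision is limited by the number of arrays. The alternatives tried were the software's processed signal with the 75th percentile as centre, normexp with an offset of 50 followed by quantile normalization in limma 3.58.1, other probe, outlier, centring and detection rules, and leaving out each array. Python 3.11.15 and R 4.3.3 were used.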

Additional observations from a re-analysis of the deposited data

Results flagged for a closer look

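Of 26 values with 4 replicates (the 9 genes, the 16 probes and the mean over the 9 genes), 1 had an array apart from the other 3. This was the CLCN6 probe A_33_P3270228, with a normalized value of -0.68 on replicate 3, against -0.32 to -0.27 on the remaining arrays, for a Dixon's ratio of 0.875. Chance marks about 5% of such values, and 7.3% of all detected probes were marked. The ratio was 0.599 for the processed signal, 0.682 after normexp and quantile normalization and 0.505 with the array median taken over all probes, all below the critical value, and 0.867 with outlying spots kept. Other probes passed the critical value under some of these settings: CLCN6 A_33_P3415113 for the processed signal (0.859), MCOLN2 A_23_P23639 (0.878) and MCOLN3 A_33_P3238335 (0.832) after normexp and quantile normalization, and the latter also with the median over all probes (0.909). Whether the probe or the array as a whole gave this value was not tested.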

How the results depend on the processing

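The number of genes detected on all arrays was 9 under every detection rule tried and without any single array. Without 1 array, the median SD of the 9 genes ranged from 0.14 to 0.22, the number spanning more than 1.4-fold from 2 to 4 and the SD of their mean between arrays from 0.09 to 0.13. The median SD of 0.20 moved to 0.10 after normexp and quantile normalization and to 0.24 with only probes well above background on all arrays. The number spanning more than 1.4-fold moved from 4 to 0 after normexp and quantile normalization, to 3 with the array median over all probes and to 5, with CLCN3 added, with only probes well above background. Over all detected genes the share was 46.4% in the main setting. It was 15.5% after normexp and quantile normalization and rose to 51.4% with the median over all probes. No such share is given here for the rule on probes or without single arrays. The SD of the mean over the 9 genes, 0.11, moved to 0.0335 for the processed signal with the 75th percentile as centre, to 0.0463 after normexp and quantile normalization, and to 0.17 with only probes well above background. Counted by probe, a set of alternatives chosen after seeing the data, 8 probes spanned more than 1.4-fold, against 43.5% of all detected probes. The number was 0 after normexp with an offset of 50 and quantile normalization, and 5 with the processed signal and its 75th percentile. No share over all probes is given here for those 2 settings. The separate parts of these paired changes were not tested. Levels are relative to each array's centre: with the median taken over all probes, OSTM1 lay at 0.14 in place of -0.95. The upstream probes of CLCN3 and CLCN4, not well above background on all arrays, give no reliable level there. No paired analysis was possible because the untreated samples that share replicate numbers with the treated ones were not analysed here.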
